A study of Mus musculus with 4 samples.

Results

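The epidermal growth factor (EGF) receptor, encoded by Egfr, and 6 genes for ligands that bind it were followed through the epithelial cells of the mouse trachea. The ligand genes were Hbegf (heparin-binding EGF-like growth factor), Areg (amphiregulin), Ereg (epiregulin), Epgn (epigen), Btc (betacellulin) and Tgfa (transforming growth factor alpha). The 7 genes were taken by symbol from the 22583 features of the count matrix, and each symbol matched 1 feature. Their Ensembl identifiers were ENSMUSG00000020122 (Egfr), ENSMUSG00000024486 (Hbegf), ENSMUSG00000029378 (Areg), ENSMUSG00000029377 (Ereg), ENSMUSG00000035020 (Epgn), ENSMUSG00000082361 (Btc) and ENSMUSG00000029999 (Tgfa).

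Single-cell RNA sequencing libraries were made from the tracheas of mice on the 129S6/SvEvTac background, with 1 library for each of 4 genotypes. These were wild-type mice, bgh mice with a mutation in Spef2, nm1054 mice that lack Cfap221, and Cfap54gt/gt mice with a gene-trapped Cfap54. The 3 mutated genes encode proteins of the central pair apparatus of motile cilia. Cells of 6 tracheas were pooled for each library except bgh, which had 5, and the mice of every group were 5 to 8 months old. The cells were freed with pronase, plated to take away fibroblasts, cleared of dead cells and loaded at 8500 cells for a target of at least 5000. Cell barcodes carried a library number from 1 to 4 that no source used here tied to a genotype. Libraries are therefore called by number, and no genotype was set against another.

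EGF-family ligands are made as membrane-bound precursors that proteases such as ADAM17 and ADAM10 cut free. Binding of a ligand pairs the receptor with a second EGF receptor or with a relative of the ERBB family, and the paired kinases then signal through the adaptors GRB2 and SHC1, the RAS and MAP kinase cascade and STAT3. Target genes include both effectors such as Egr1 and Myc and brakes on the pathway such as the Sprouty proteins and the phosphatase DUSP6. In airway epithelium the receptor is known for its part in the growth and repair of basal cells and in the making of mucous cells.

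The 4 libraries held 39658153 to 53491773 unique molecular identifiers (UMIs, counts of captured transcripts), and 3692 to 6746 cells per library were kept, 19471 in all. Cells were clustered without the 7 genes, and 16219 cells fell into 4 classes named from marker genes. Basal-like cells numbered 4337, hillock-like cells 470, ciliated-like cells 4742 and secretory-like cells 6670. Basal cells are the stem cells of this epithelium, hillock cells are Krt13-positive and Krt4-positive cells above the basal layer, and secretory cells include club and goblet cells. Summed markers of the hillock, ciliated and secretory classes were highest in their own class, at 7322 to 9282 UMIs per 1000000 (CPM) for the hillock markers in hillock-like cells against 775 to 1382 CPM in basal-like cells. Basal markers were the exception, at 11500 to 16250 CPM in hillock-like and 7450 to 7995 CPM in basal-like cells. The hillock-like cells formed 1 cluster with 50, 55, 181 and 184 cells in libraries 1 to 4. Median depth was 3835 UMIs per cell in basal-like, 6282 in hillock-like, 2513 in ciliated-like and 10892 in secretory-like cells.

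Levels below are CPM of the UMIs summed over the cells of 1 class in 1 library, and intervals are exact 95% Poisson intervals that cover counting error only. CPM counts 3' tags, so the level of one gene is not set against that of another. Classes were compared with edgeR's quasi-likelihood test over the 16 library-by-class sums with the library as a block, and a gene was called at a Benjamini-Hochberg adjusted p under 0.05 over 12632 genes. The p-values measure how far differences between classes varied over these 4 libraries, which differ in genotype. That spread was estimated over all 4 classes at once and moderated across genes. SE values were derived from the log2 ratio and the test's F statistic. An exact permutation test over 4 libraries could not go below 0.125. Log2 ratios are on the TMM scale, which sets the bulk of genes equal between sums. Secretory markers took 362800 to 401400 CPM of the secretory-like sums, and without TMM the median gene would lie 0.55, 0.82 and 0.64 log2 units higher in basal-like, ciliated-like and hillock-like cells than in secretory-like cells. Directions against secretory-like cells are relative to that shift, and the results that turn on it are named below.

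Promoters of the ligand genes are shown for a group of 4 of them, Epgn, Ereg, Areg and Btc, that are neighbours on chromosome 5. Those of Ereg and Hbegf were not used here. The 3 windows of this group shown here are from RefSeq (build GRCm38.p6, 250 bases before the gene start, 5′ to 3′), at chr5:91139349-91139598 on the plus strand for Areg, chr5:91027267-91027516 on the plus strand for Epgn and chr5:91402995-91403244 on the minus strand for Btc. The promoter of Egfr on chromosome 11, chr11:16751953-16752202 on the plus strand, is shown with them as that of the receptor. Capitals mark matches to 3 motifs searched on both strands, TGANTCA (the AP-1 site), TGACGTCA (the cyclic AMP response element) and TATAAA (the TATA box).
Areg: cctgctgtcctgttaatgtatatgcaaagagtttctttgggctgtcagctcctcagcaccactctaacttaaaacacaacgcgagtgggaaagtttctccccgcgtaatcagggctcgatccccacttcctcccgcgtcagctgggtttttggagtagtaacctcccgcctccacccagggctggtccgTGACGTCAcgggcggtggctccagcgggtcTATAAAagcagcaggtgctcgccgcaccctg
Epgn: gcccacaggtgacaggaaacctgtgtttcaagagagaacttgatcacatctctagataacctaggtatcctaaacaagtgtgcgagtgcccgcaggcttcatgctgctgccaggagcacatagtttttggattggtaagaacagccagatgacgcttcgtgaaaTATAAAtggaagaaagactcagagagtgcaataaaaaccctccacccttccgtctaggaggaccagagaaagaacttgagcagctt
Btc: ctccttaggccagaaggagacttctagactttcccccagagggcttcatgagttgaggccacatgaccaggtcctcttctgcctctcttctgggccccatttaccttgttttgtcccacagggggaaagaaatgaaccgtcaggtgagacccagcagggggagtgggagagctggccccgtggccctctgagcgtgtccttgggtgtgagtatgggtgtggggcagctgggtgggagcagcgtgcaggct
Egfr: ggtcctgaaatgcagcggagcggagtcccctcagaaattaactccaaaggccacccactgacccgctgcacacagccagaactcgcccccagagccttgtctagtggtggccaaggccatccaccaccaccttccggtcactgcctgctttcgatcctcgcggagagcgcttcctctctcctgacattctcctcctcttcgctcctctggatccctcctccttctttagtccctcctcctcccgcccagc
The Areg window held TGACGTCA, a sequence equal to its own reverse complement, starting 61 bases before the gene start, and TATAAA starting 31 bases before it. The Epgn window held TATAAA starting 86 bases before the start. The Btc, Egfr and Tgfa windows held none of the 3 motifs. Among 32851 RefSeq promoter windows of the same length, 1.55% held TGACGTCA, 12.4% held TATAAA and 6.75% held TGANTCA. The files use the build GRCm39, so these positions are not set beside any coordinate of the data.

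The receptor and most of its ligands were at higher levels in basal-like cells than in those of the secretory class. Egfr, Hbegf, Areg, Ereg and Epgn were called higher, 5 of 7 genes, where 60.0% of all genes tested were called (29.0% higher and 31.1% lower). Tgfa (-0.30) and Btc (-0.35) were not called and turned to 0.29 and 0.23 on library totals. Ciliated-like cells combined a high Hbegf level, shared with basal-like cells, with a low Egfr level by CPM, shared with secretory-like cells. Their Ereg level was the lowest of the 4 classes. Against secretory-like cells, 1 of the 7 genes was called higher (Hbegf) and 4 lower (Egfr, Ereg, Tgfa, Btc), where 70.4% of all genes were called (35.2% in each direction). Against basal-like cells, 6 of the 7 were called lower in ciliated-like cells and Hbegf was not called, where 75.5% of all genes were called (38.9% higher and 36.6% lower).

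Ereg was called higher and Hbegf lower in hillock-like than in basal-like cells, 2 of 7 genes where 28.0% of all genes were called (12.5% higher and 15.5% lower). The other 5 were not called, which does not show that they were equal. Against secretory-like cells, Egfr, Ereg, Areg and Epgn were called higher and Tgfa lower, 5 of 7 where 41.1% of all genes were called (19.8% higher and 21.3% lower). Against ciliated-like cells, Egfr, Ereg, Areg, Btc and Epgn were called higher and Hbegf lower, 6 of 7 where 63.8% of all genes were called (30.2% higher and 33.5% lower). The shares called among the 7 genes were near those of all genes in several of these comparisons, so the counts are read gene by gene.

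**Figure D1:**
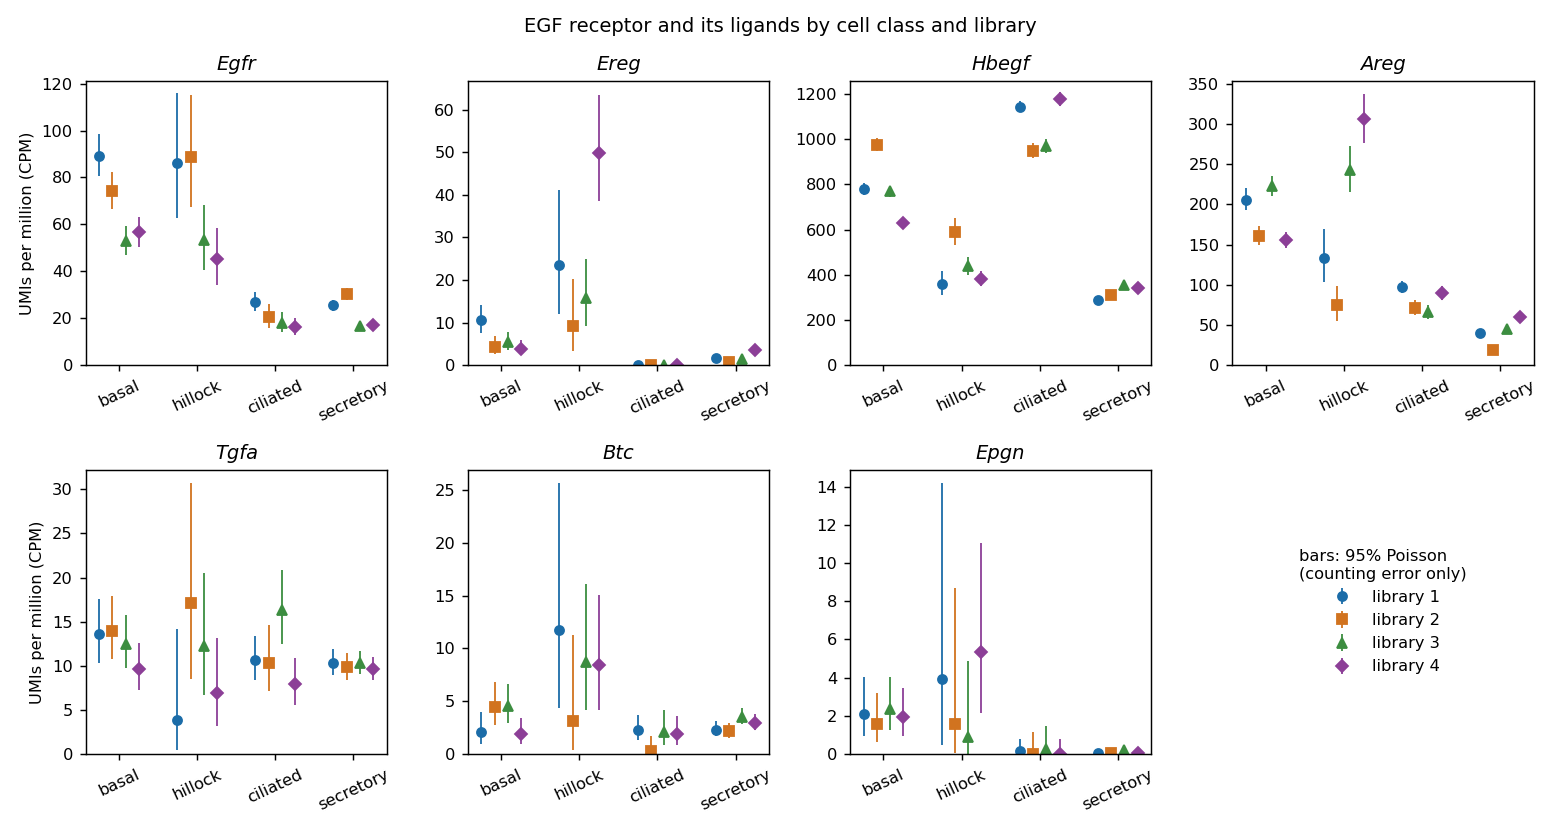
Summed level of each gene (CPM, linear axis from 0) by cell class, with 1 point per library and 95% Poisson bars that cover counting error only. Egfr lay between 45.2 and 89.3 CPM in basal-like and hillock-like cells and between 16.3 and 30.3 CPM in ciliated-like and secretory-like cells.

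**Figure D2:**
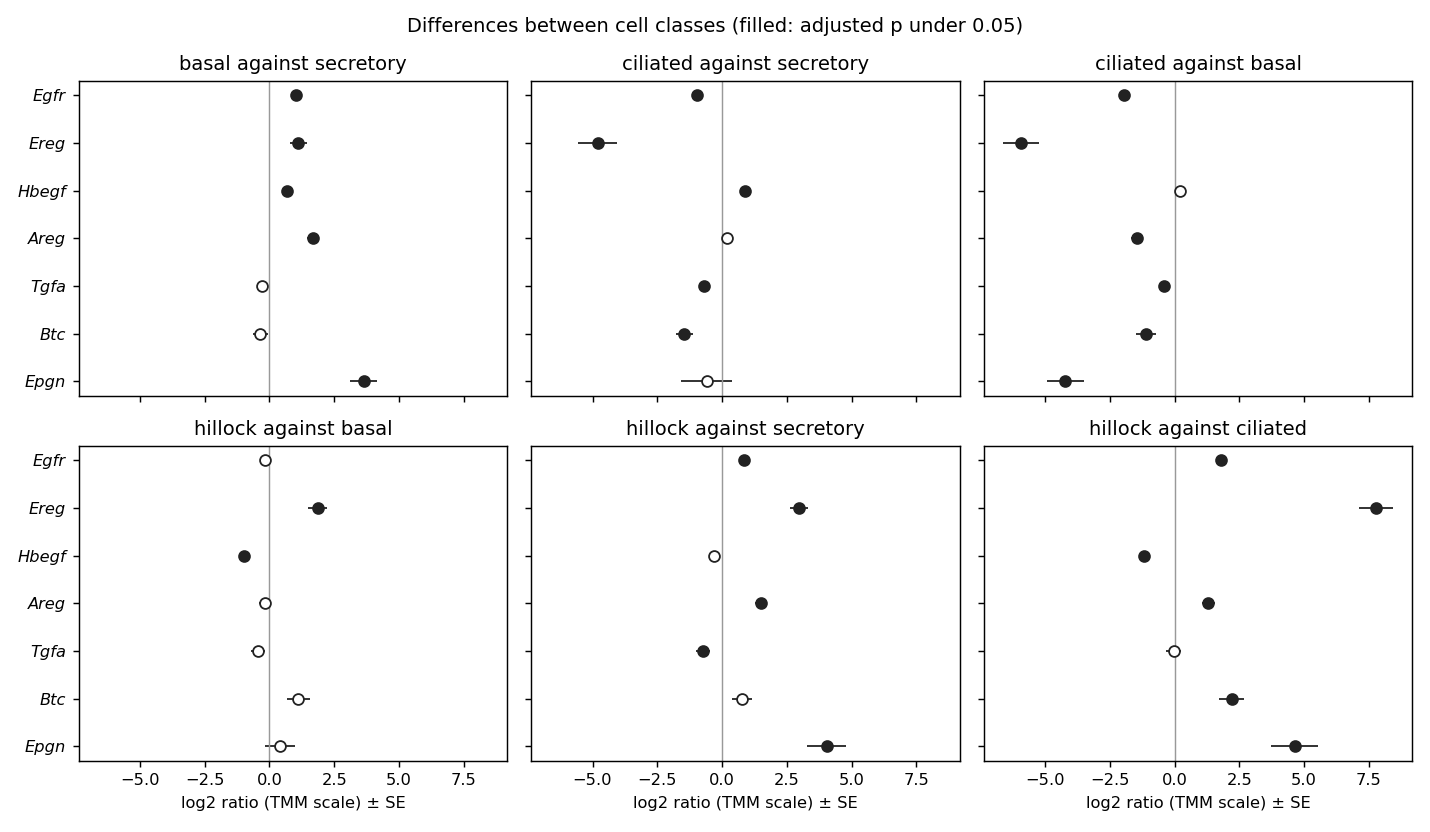
Log2 ratio of each gene in the 6 comparisons of classes (TMM scale, bars are SE, filled points have an edgeR adjusted p under 0.05). The fitted values of Ereg and Epgn against ciliated-like cells rest on 2 UMIs each in that class, and the text gives their counting ratios.

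Egfr, the receptor, was highest in basal-like and hillock-like cells. In basal-like cells its level was 89.3, 74.1, 52.8 and 56.6 CPM in libraries 1 to 4, and in hillock-like cells 86.3, 88.9, 53.3 and 45.2 CPM. In ciliated-like cells it was 27.0, 20.4, 18.1 and 16.3 CPM, and in secretory-like cells 25.5, 30.3, 16.9 and 17.3 CPM. No library of the first pair of classes overlapped any library of the second pair, while the classes within each pair overlapped. Libraries 1 and 2 were above libraries 3 and 4 in each of the 4 classes. The log2 ratio of basal-like to secretory-like cells was 1.02 ± 0.10 (SE, n = 4 libraries), higher in 4 of 4 libraries (edgeR adjusted p = 8.45e-09).

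Neighbouring classes in the order of Egfr levels did not all differ. Hillock-like against basal-like cells gave a log2 ratio of -0.18 ± 0.12 (edgeR adjusted p = 0.295). Hillock-like against secretory-like cells gave 0.84 ± 0.12 (edgeR adjusted p = 1.17e-05), which fell to 0.49 with an edgeR adjusted p of 0.248 when each cell was thinned to 1500 UMIs. Ciliated-like cells were lower than basal-like cells by a log2 ratio of -1.97 ± 0.11 (edgeR adjusted p = 4.38e-13). They were also called lower than secretory-like cells, at -0.96 ± 0.11 (edgeR adjusted p = 7.91e-08), but on library totals that ratio was -0.11 (edgeR adjusted p = 0.392) and the CPM ranges overlapped.

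Egfr was seen in a minority of cells of every class, and the share followed depth as well as level. It had a UMI in 23.0% of basal-like, 31.1% of hillock-like, 6.69% of ciliated-like and 20.8% of secretory-like cells. After thinning each cell to 1500 UMIs, which left out 121, 2, 1294 and 113 shallower cells of these classes, the shares were 8.49%, 7.27%, 2.15% and 3.19%. Leukocyte-like cells, 97 cells taken as a background class, gave 3.09% before and 1.35% after thinning. Whether they lack the receptor was not tested. The background after thinning was 1 of 74 cells, with an exact 95% interval of 0.0342% to 7.30%, so it is known only roughly. That interval takes in the hillock-like, ciliated-like and secretory-like shares, and the basal-like share lay above it. The leukocyte-like cells also carried ionocyte markers, at 1428 to 2173 CPM, so they may not be a clean blank.

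Hbegf, whose precursor is also known as the diphtheria toxin receptor, was highest in ciliated-like and basal-like cells. Its level was 1143, 948, 968 and 1179 CPM in the ciliated-like and 778, 975.2, 769 and 630 CPM in the basal-like cells of libraries 1 to 4. It was 361, 590, 439 and 384 CPM in hillock-like cells and 288, 309, 354 and 341 CPM in secretory-like cells. Ciliated-like levels were above basal-like levels in each library but library 2, the ranges of these classes overlapped, and both lay above the hillock-like and secretory-like levels in every library. The log2 ratio to secretory-like cells was 0.87 ± 0.14 in ciliated-like cells (edgeR adjusted p = 7.46e-06) and 0.68 ± 0.14 in basal-like cells (edgeR adjusted p = 0.0002), higher in 4 of 4 libraries for each.

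Ciliated-like and basal-like cells did not differ in Hbegf by the test, with a log2 ratio of 0.19 ± 0.14 (edgeR adjusted p = 0.209). The same comparison was called higher in ciliated-like cells on library totals (0.45, edgeR adjusted p = 0.00396), without library 2 (0.38, edgeR adjusted p = 0.0103) and over the clusters whose median depth reached 3000 UMIs (0.59, edgeR adjusted p = 0.000477). Hillock-like cells were lower than basal-like cells by -0.99 ± 0.14 (edgeR adjusted p = 1.91e-05), a ratio of -0.31 (edgeR adjusted p = 0.105) where cells were gated by marker share instead of clustered. Against secretory-like cells the hillock-like ratio was -0.31 (edgeR adjusted p = 0.0933), and it turned to 0.44 (edgeR adjusted p = 0.00806) on library totals.

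Hbegf was the ligand seen in the largest share of cells of each class. After thinning it had a UMI in 55.4% of basal-like, 40.0% of hillock-like, 57.7% of ciliated-like and 36.0% of secretory-like cells, against 25.7% of leukocyte-like cells. Before thinning the shares were 77.2%, 78.7%, 59.8% and 84.5%, with 29.9% in leukocyte-like cells. The early genes that tissue dissociation can induce moved with this order, in part: their summed level was 13480 to 18880 CPM in ciliated-like, 9333 to 11800 in basal-like, 11170 to 13410 in hillock-like and 4070 to 5980 in secretory-like cells. Their part in the Hbegf levels was not tested.

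Areg was highest in basal-like and hillock-like cells. Its level was 206, 161, 223 and 156 CPM in the basal-like cells of libraries 1 to 4 and 133, 74.9, 243 and 306 CPM in the hillock-like cells. It was 97.1, 71.0, 66.2 and 90.3 CPM in ciliated-like and 40.9, 19.2, 45.1 and 60.4 CPM in secretory-like cells. Basal-like cells lay above ciliated-like and secretory-like cells in every library, and the lowest hillock-like library, library 2, fell within the ciliated-like range. The log2 ratio of basal-like to secretory-like cells was 1.67 ± 0.22 (edgeR adjusted p = 1.37e-06), and that of hillock-like to secretory-like cells was 1.5 ± 0.24 (edgeR adjusted p = 3.28e-05), higher in 4 of 4 libraries for each.

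The comparison of Areg between hillock-like and basal-like cells turned with the choice of cells. In clustered cells the log2 ratio was -0.17 ± 0.24 (edgeR adjusted p = 0.653). With cells gated by marker share, where 116 of 315 gated hillock cells were shared with the cluster, it was 1.04 (edgeR adjusted p = 1.77e-05), and without doublet removal, where the hillock cluster held 107 cells, it was 0.78 (edgeR adjusted p = 0.0284). Ciliated-like cells were lower than basal-like cells by -1.47 ± 0.23 (edgeR adjusted p = 5.89e-06). Against secretory-like cells they gave 0.21 (edgeR adjusted p = 0.423), which became 1.05 (edgeR adjusted p = 0.000139) on library totals and 0.61 with gated cells, both called higher. After thinning, Areg had a UMI in 15.2% of basal-like, 21.8% of hillock-like, 7.72% of ciliated-like and 4.93% of secretory-like cells. Of the leukocyte-like cells, 0 of 74 held an Areg UMI, and a floor of 3 cells is a share of 4.05%.

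Ereg was the only one of the 7 genes called higher in hillock-like than in basal-like cells, where Hbegf was called lower. Its level was 23.5, 9.36, 15.7 and 49.8 CPM in the hillock-like cells of libraries 1 to 4 and 10.6, 4.44, 5.43 and 3.87 CPM in the basal-like cells. Secretory-like cells held 1.66, 0.801, 1.49 and 3.73 CPM, and ciliated-like cells held 1, 0, 0 and 1 UMI. Hillock-like cells were the highest class in each library, although library 2 of that class was below library 1 of the basal-like cells. The log2 ratio of hillock-like to basal-like cells was 1.86 ± 0.36 (edgeR adjusted p = 0.000489), higher in 4 of 4 libraries.

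Ratios of summed Ereg counts, with exact intervals for counting error, were 4.79 (3.63 to 6.31) for hillock-like over basal-like cells and 14.1 (10.9 to 18.2) for hillock-like over secretory-like cells. The first rested largely on library 4: it was 2.23, 2.11, 2.90 and 12.9 in libraries 1 to 4, and 2.36 (1.56 to 3.50) without library 4, where the fitted log2 ratio was 1.11 (edgeR adjusted p = 0.0197). Over ciliated-like cells, with 2 UMIs in all, they were 262 (70.7 to 2193) for hillock-like, 54.7 (14.8 to 457) for basal-like and 18.5 (5.05 to 154) for secretory-like cells. Basal-like against secretory-like cells gave a log2 ratio of 1.12 ± 0.33, higher in 3 of 4 libraries (edgeR adjusted p = 0.00542). The summed counts gave 2.95 (2.31 to 3.76), and 4.95 without library 4. The call was lost without library 1 (0.74, edgeR adjusted p = 0.104), after thinning (0.72, edgeR adjusted p = 0.175) and without the library block (1.03, edgeR adjusted p = 0.0569). Thinned shares of cells with an Ereg UMI were 2.99% in hillock-like, 0.688% in basal-like, 0.275% in secretory-like and 0.029% in ciliated-like cells. Leukocyte-like cells again gave 0 of 74, so at this depth a background of that size in any class cannot be told apart from these shares.

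Epgn was the scarcest of the 7 genes, with 40 UMIs in basal-like, 11 in hillock-like, 2 in ciliated-like and 8 in secretory-like cells. Basal-like cells held 9, 7, 13 and 11 UMIs in libraries 1 to 4, which is 2.11, 1.55, 2.35 and 1.93 CPM, and hillock-like cells held 2, 1, 1 and 7. Secretory-like cells, with the most UMIs of any class, held 1, 1, 5 and 1. The count ratio was 20.7 (9.55 to 51.2) for basal-like over secretory-like cells and 31.6 (11.6 to 90.4) for hillock-like over secretory-like cells. Hillock-like over basal-like cells gave 1.53 (0.706 to 3.03), an interval that holds no difference as well as a 3.03-fold one. With so few UMIs single libraries moved these ratios: without library 3 they were 36.8, 80.2 and 2.18 in this order, and without library 4 the last pair were 15 and 0.859. The fitted log2 ratio of basal-like to secretory-like cells was 3.63 ± 0.52 (edgeR adjusted p = 3.47e-06), higher in 4 of 4 libraries. That of hillock-like to secretory-like cells was 4.04 ± 0.75 (edgeR adjusted p = 0.000157), and its call was lost without doublet removal (3.45).

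Btc was low in all 4 classes, with 65 UMIs in basal-like, 29 in hillock-like, 34 in ciliated-like and 232 in secretory-like cells. Its level was 2.11, 4.44, 4.52 and 1.93 CPM in basal-like, 11.8, 3.12, 8.74 and 8.43 CPM in hillock-like, 2.28, 0.314, 2.10 and 1.93 CPM in ciliated-like and 2.33, 2.17, 3.52 and 2.96 CPM in secretory-like cells. The hillock-like values were the highest in 3 of 4 libraries, and library 2 was the exception. The log2 ratio of hillock-like to ciliated-like cells was 2.21 ± 0.48 (edgeR adjusted p = 0.000397), and that of ciliated-like to secretory-like cells was -1.45 ± 0.34 (edgeR adjusted p = 0.000668), a ratio of -0.61 (edgeR adjusted p = 0.114) on library totals. Hillock-like against basal-like cells gave 1.12 ± 0.43 (edgeR adjusted p = 0.0595), which was called higher without library 2 (1.53), without doublet removal (2.20) and with gated cells (1.78). Ciliated-like against basal-like cells gave -1.10 ± 0.39 (edgeR adjusted p = 0.0155), and that call was lost without library 2 (-0.61), without library 3 (-0.96) and on library totals (-0.84).

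Levels of Tgfa lay close together in the 4 classes. Its level was 13.6, 14.0, 12.5 and 9.67 CPM in basal-like, 3.92, 17.2, 12.2 and 6.90 CPM in hillock-like, 10.7, 10.4, 16.3 and 7.91 CPM in ciliated-like and 10.4, 9.84, 10.3 and 9.61 CPM in secretory-like cells. The ranges of all 4 classes overlapped. Its thinned shares of 1.07% to 2.02% lay below the 4.05% of the 74 leukocyte-like cells left after thinning. Leukocyte-like cells held 4 Tgfa UMIs in all before thinning, and whether they make Tgfa was not tested. They therefore cannot serve as a blank for this gene. Ciliated-like against secretory-like cells gave a log2 ratio of -0.70 ± 0.16 (edgeR adjusted p = 0.000534), which turned to 0.15 on library totals. Ciliated-like against basal-like cells gave -0.40 (edgeR adjusted p = 0.048), a call lost without library 1 (-0.35), 2 (-0.29) or 4 (-0.38). Hillock-like against secretory-like cells gave -0.74 ± 0.26 (edgeR adjusted p = 0.0269), a call that was lost without library 1 (-0.55), 3 (-0.82) or 4 (-0.56) and that turned to 0.0033 on library totals.

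**Figure D3:**
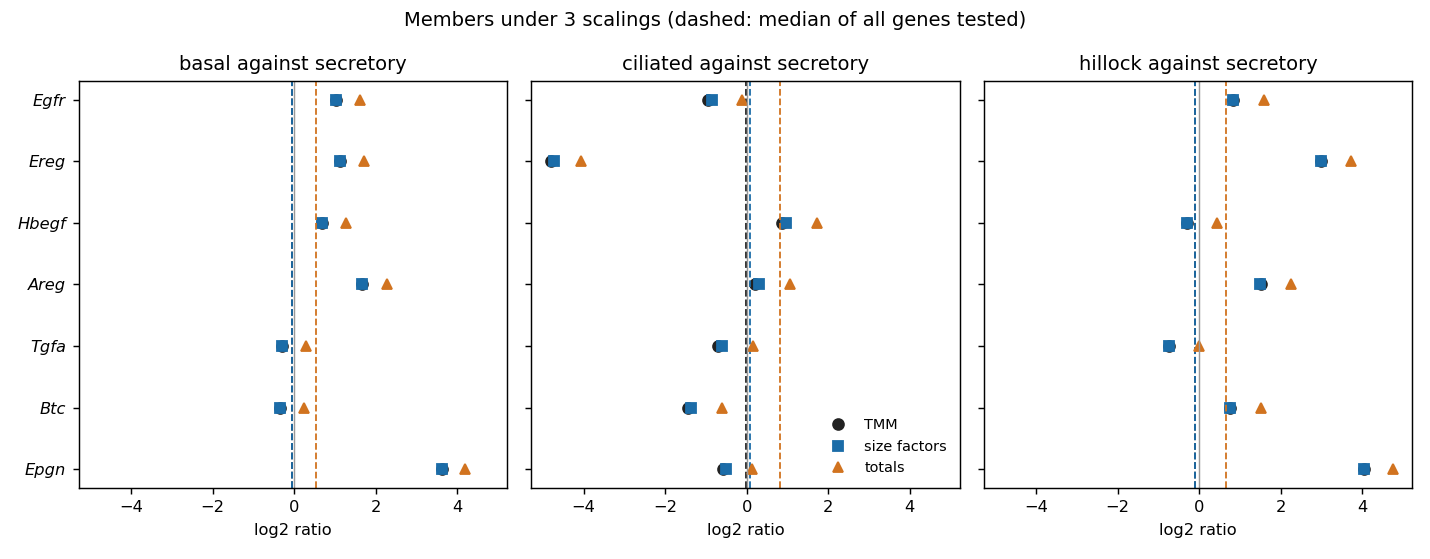
Log2 ratio of each gene against secretory-like cells under TMM, DESeq2 size factors and library totals, with the median of all genes tested as dashed lines. The values on library totals lie to the right by about the shift of the median gene, and 6 points cross 0: Tgfa in all 3 panels, Btc in basal-like, Epgn in ciliated-like and Hbegf in hillock-like cells.

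The ligands were not evenly spread over the clusters of a class. Areg in secretory-like cells was concentrated in cluster 2 (2463 cells), at 96.6 CPM, against 8.77 CPM in cluster 1 (2632 cells) and 15.4 CPM in cluster 6. Cluster 2 was led by Ltf, Scgb1a1 and Bpifa1, with Psca, Serpinb2 and Krt4 further down its leading genes. It had 8 of 8 secretory, 4 of 8 hillock and 4 of 10 basal markers raised. Cluster 1 was led by Scgb3a1, Tff2 and Bpifa1, with 8 of 8 secretory and 3 of 10 basal markers raised. Scgb3a1 was among the leading genes of both clusters. The Areg ratio of cluster 2 to cluster 1 was 11, and it was 11.1, 8.64, 11.5 and 10.2 in libraries 1 to 4. Median depth was 10562 and 11799 UMIs in these clusters. Ereg followed the same split, with 155 of the 164 secretory-like UMIs in cluster 2. The 8 Epgn UMIs of secretory-like cells all lay in cluster 2, and Btc was 4.29 CPM there and 1.73 CPM in cluster 1. Egfr and Hbegf did not follow it: Egfr was 20.4 CPM in cluster 2 and 26.7 CPM in cluster 1, and Hbegf was 354 and 317 CPM. The clusters come from the same cells, so these values are a description with no test.

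Among ciliated-like cells, Egfr, Hbegf, Areg and Tgfa were highest in cluster 5, the deepest of the 4 clusters with a median of 7339 UMIs. Egfr was 32.7 CPM in cluster 5 and 5.94 CPM in cluster 3, whose median depth was 1973 UMIs, and 37.5, 41.9, 25.3 and 25.7 CPM against 8.04, 1.54, 7.88 and 5.66 CPM in libraries 1 to 4. Hbegf was 1452 CPM in cluster 5, 707 in cluster 3, 60.6 in cluster 8 and 98.6 in cluster 13. Areg was 107 CPM in cluster 5 and 64.5 CPM in cluster 3, and Tgfa was 16.2 and 4.41 CPM. Btc was 1.91 and 1.87 CPM. Median depth was 1978 UMIs in cluster 8 and 748 in cluster 13, and the part of depth in these levels was not tested. In basal-like cells, Egfr was 71.3 CPM in cluster 0 and 49.0 CPM in cluster 7, Areg was 206 and 115 CPM, and Hbegf was 772 and 800 CPM.

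**Figure D4:**
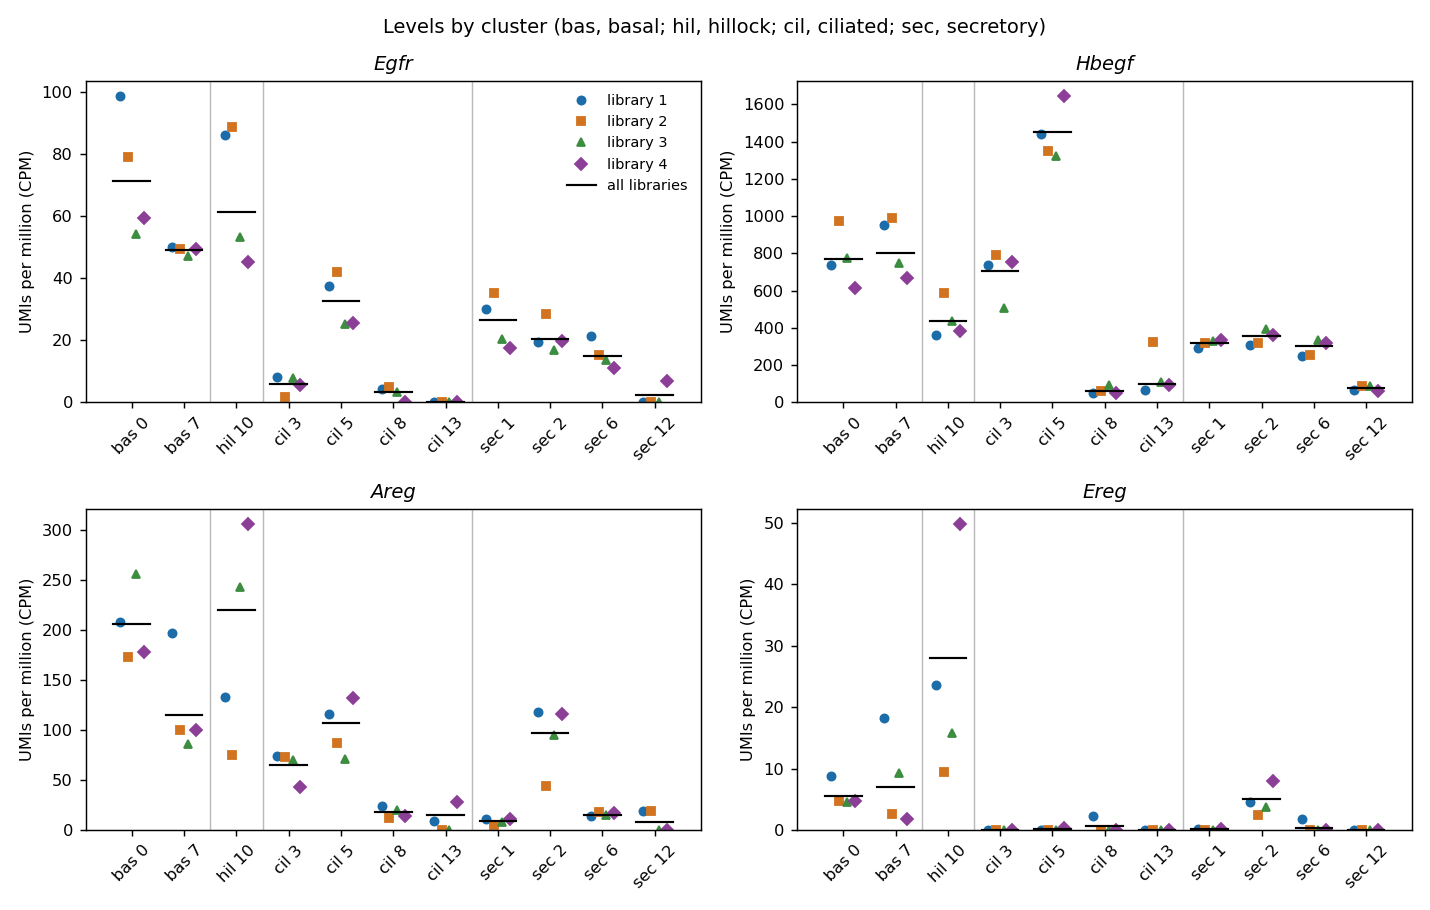
Levels of Egfr, Hbegf, Areg and Ereg (CPM, linear axis from 0) in each cluster of the 4 classes, with 1 point per library and a line for all libraries together. Areg and Ereg are high in secretory cluster 2 and low in secretory cluster 1, while Hbegf is highest in ciliated cluster 5.

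Cells that held both Areg and Ereg were counted after thinning each cell to 1500 UMIs. In secretory-like cells 10 cells held both, where the product of the single shares within each library gave 1.01 cells, a ratio of 9.9, and 4.64 when the product was taken within cluster. In basal-like cells 13 cells held both against 4.56 by the product, and in hillock-like cells 6 against 3.52. These counts changed with depth: at 3000 UMIs they were 9 against 7.79 in basal-like and 19 against 9.85 in hillock-like cells, and at 500 UMIs neither class had a cell with both. Egfr and Hbegf showed no such excess in basal-like cells, with 192 cells holding both against 198. In ciliated-like cells the 58 cells with both exceeded the 42.8 of the product, but the ratio was 1.06 within cluster. Among cells with an Egfr UMI, a ligand UMI was found in the same cell in 215 of 358 basal-like, 21 of 34 hillock-like, 59 of 74 ciliated-like and 93 of 209 secretory-like cells. These are 60.1%, 61.8%, 79.7% and 44.5%, beside 61.6%, 53.6%, 60.8% and 40.2% of all cells of each class with a ligand UMI. The counts of pairs are small and are given as a description.

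The 4 libraries differed in some of these genes within a class. A gene was counted as apart where the highest library was at least 2-fold above the lowest with intervals that did not overlap, among genes with at least 100 UMIs in the class. In basal-like cells 1 of 5 such genes was apart, Ereg at a ratio of 2.73, where 8.87% of all genes were. In hillock-like cells 2 of 4 were, Ereg at 5.32 and Areg at 4.09, where 11.9% of all genes were. In ciliated-like cells 1 of 4 was, Tgfa at 2.06, where 6.56% of all genes were. In secretory-like cells 2 of 6 were, Ereg at 4.66 and Areg at 3.14, where 9.83% of all genes were.

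Library 4 had the highest Ereg and Areg in both hillock-like and secretory-like cells, and library 2 had the lowest. Cluster 2 held 27.6%, 31.0%, 39.5% and 43.1% of the secretory-like cells of libraries 1 to 4. Within cluster 2, Areg was 118, 43.8, 95.4 and 116 CPM and Ereg 4.47, 2.49, 3.69 and 7.96 CPM, so library 2 was lowest there too, while Areg was highest in library 1. Basal-like cells did not share the order of the hillock-like class: Ereg was highest in library 1 and Areg in library 3. Egfr reached ratios of 1.69, 1.97, 1.66 and 1.79 in basal-like, hillock-like, ciliated-like and secretory-like cells, always with library 1 or 2 highest, where the median gene reached 1.38, 1.49, 1.37 and 1.38. With a minimum of 1.5-fold, under which Egfr counted as apart in each class, 24.6%, 23.8%, 21.1% and 28.0% of all genes did. Each library is 1 pool of tracheas without a replicate, so library and genotype cannot be told apart from the pool. Median depth moved with the Egfr order in basal-like cells, at 5565, 4167, 2976 and 4145 UMIs per cell in libraries 1 to 4. Libraries 1 and 2 were also the deeper ones in hillock-like cells (8928, 8123, 4885 and 5825 UMIs) and in secretory-like cells (16092, 12044, 8332 and 10908 UMIs). In ciliated-like cells depth was 3819, 2271, 2045 and 2421 UMIs, with library 4 deeper than library 2. The part of depth in the Egfr levels was not tested.

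Of the other ERBB receptors and EGF-family ligands, Egf, Nrg3 and Nrg4 had too few UMIs to be tested and 5 of 8 genes were. In basal-like against secretory-like cells 2 of the 5 were called higher and 3 lower, with a median log2 ratio of -0.33 where that of all genes was -0.04. The lower genes were Erbb2, Erbb3 and Erbb4, and the direction of Erbb2 and Erbb3 turned on the scaling. Erbb2 was 9.63, 5.33, 9.05 and 9.50 CPM in the basal-like cells of libraries 1 to 4. In the secretory-like cells it was 6.27, 4.92, 8.53 and 8.08 CPM. By CPM, Erbb3 was higher in basal-like cells in every library but library 4. Of all genes, 29.0% were called higher and 31.1% lower. Nrg1 and Nrg2, the neuregulin ligands of ERBB3 and ERBB4, were higher in basal-like than in secretory-like cells. Nrg1 was 659, 713, 689 and 468 CPM in the basal-like cells of libraries 1 to 4 against 54.7, 44.7, 27.4 and 46.5 CPM in the secretory-like cells, a log2 ratio of 3.25 ± 0.18 (edgeR adjusted p = 1.97e-12). Nrg2 had medians of 36.5 and 1.87 CPM and a log2 ratio of 3.51 ± 0.20 (edgeR adjusted p = 2.28e-12). The basal-like and secretory-like libraries did not overlap for either gene.

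In ciliated-like cells, where Hbegf was high, the median was 60.7 CPM for Nrg1 and 0.685 CPM for Nrg2. Erbb3, the neuregulin receptor with a weak kinase, had medians of 294 CPM in hillock-like, 116 in basal-like, 99.9 in secretory-like and 55.7 in ciliated-like cells. It was higher in hillock-like than in basal-like cells by 1.19 ± 0.11 (edgeR adjusted p = 5.09e-08) and lower in ciliated-like than in secretory-like cells by -1.73 ± 0.11 (edgeR adjusted p = 4.18e-12). Erbb4, another neuregulin receptor, held 9 UMIs in the basal-like and 68 in the secretory-like class (log2 ratio -1.44 ± 0.49, edgeR adjusted p = 0.018). It held 0 UMIs in ciliated-like cells, at least 5.12-fold lower by CPM than in secretory-like cells with a floor of 3 UMIs over the class. Erbb2, another receptor of the list, had medians of 23.0 CPM in ciliated-like, 17.0 in hillock-like, 9.27 in basal-like and 7.17 in secretory-like cells. In ciliated-like against secretory-like cells 1 of the 5 genes was called higher and 4 lower, where 35.2% of all genes were called in each direction. Nrg1 was among the lower genes on the TMM scale. By CPM it was higher in ciliated-like cells in every library but library 4, which had 37.4 against 46.5 CPM.

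The counts of each list below stand beside those of all 12632 genes. In basal-like against secretory-like cells, 29.0% of all genes were called higher and 31.1% lower on the TMM scale, and 55.1% and 11.7% on library totals. In ciliated-like against secretory-like cells, the shares were 35.2% in each direction on the TMM scale, and 66.7% and 11.9% on library totals.

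Of the genes for release of ligands, 7 of 8 were tested, since Adam12 was too low. In basal-like against secretory-like cells 2 were called higher and 2 lower, with a median log2 ratio of 0.08 where the median of all genes was -0.04. Adam17, the main protease that sheds these ligands, was higher in basal-like cells (0.79 ± 0.13, edgeR adjusted p = 1.72e-05), at medians of 29.3 and 10.9 CPM. Timp3, an inhibitor of ADAM17, was lower (-0.84 ± 0.14, edgeR adjusted p = 2.51e-05). So was Rhbdf1, which carries ADAM17 to the cell surface, on the TMM scale (-0.79 ± 0.12, edgeR adjusted p = 7.13e-06). Rhbdf1 was 27.95, 22.19, 30.4 and 24.09 CPM in the basal-like and 24.55, 29.85, 37.27 and 28.51 CPM in the secretory-like cells of libraries 1 to 4. These ranges overlapped, and library 1 was higher in basal-like cells. In ciliated-like against secretory-like cells 4 were called lower and 0 higher, among them Adam9 (-1.85 ± 0.14), Furin (-1.80 ± 0.12) and Timp3 (-1.55 ± 0.14), with edgeR adjusted p of 1.66e-10, 1.46e-11 and 2.87e-09. On library totals that count was 3 higher and 4 lower.

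The adaptors and the kinase cascade split. Of 16 genes tested, 5 were called higher and 5 lower in basal-like against secretory-like cells, with a median of 0.06, while on library totals 12 were higher and 1 lower, with a median of 0.66. Mapk3, the MAP kinase ERK1, was lower (-1.25 ± 0.11, edgeR adjusted p = 3.27e-09), and the transcription factor Stat3 was higher (0.69 ± 0.10, edgeR adjusted p = 3.3e-06). In ciliated-like against secretory-like cells 3 were called higher and 9 lower, while on library totals 12 were higher and 1 lower, so the direction of this list depends on the scaling. The phosphatase Ptpn11 (-1.20 ± 0.10, edgeR adjusted p = 2.61e-10) kept its direction at -0.35, whereas the exchange factor Sos1 (-0.81 ± 0.13, edgeR adjusted p = 9.31e-06) and the kinase Map2k1 (-0.73 ± 0.13, edgeR adjusted p = 4.14e-05) turned to 0.04 and 0.11 on library totals.

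Feedback genes were higher in basal-like than in secretory-like cells. Of 13 tested, 9 were called higher and 3 lower, with a median of 1.56, and 11 were called higher and 0 lower on library totals, where 55.1% of all genes were higher and 11.7% lower. Dusp6, the phosphatase of ERK, was 139, 165, 180 and 175 CPM in the basal-like and 13.9, 17.0, 23.5 and 18.1 CPM in the secretory-like cells of libraries 1 to 4, with no overlap. Its log2 ratio was 2.60 ± 0.12 (edgeR adjusted p = 1.72e-13), beside 2.5 ± 0.14 for Spry2 (edgeR adjusted p = 3.55e-12) and 3.77 ± 0.34 for Spry4 (edgeR adjusted p = 5.61e-09), which encode Sprouty inhibitors of the cascade. Hillock-like cells were lower than basal-like cells in 9 of these 13 genes and higher in 0, with a median of -0.73, including Dusp6 (-0.95 ± 0.14, edgeR adjusted p = 2.16e-05) and Spry2 (-1.06 ± 0.20, edgeR adjusted p = 0.000396). On library totals 7 were lower and 1 higher. Of all genes, 15.5% were called lower and 12.5% higher in this comparison, and 10.9% and 17.5% on library totals. The 4 mitochondrial genes of the RNA quality list were lower in hillock-like than in basal-like cells too, with a median of -0.58, and on library totals as well. Their part in the feedback genes was not tested.

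In ciliated-like against secretory-like cells the same list was called higher for 5 genes and lower for 5. Spry1 (2.15 ± 0.14, edgeR adjusted p = 6.12e-12) and the ubiquitin ligase Cblb (1.36 ± 0.11, edgeR adjusted p = 6.34e-10) were higher. Spry4 was called lower on 1 UMI in ciliated-like cells, too few for a ratio. On library totals 9 genes were higher and 0 lower.

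Response genes were also higher in basal-like than in secretory-like cells. Of 12 tested, 10 were called higher and 1 lower in basal-like against secretory-like cells, with a median of 1.42. In ciliated-like against secretory-like cells 1 was called higher and 8 lower, with a median of -1.14 (-1.07 with Etv4, which had 0 UMIs in ciliated-like cells, at its bound), and 5 and 6 on library totals. In hillock-like against secretory-like cells 8 were higher and 1 lower, with a median of 0.85, and without doublet removal 2 were higher and 3 lower with a median of -0.65. Of all genes, 19.8% were called higher and 21.3% lower in that comparison, and 8.12% and 13.9% without doublet removal. Egr1, an early transcription factor, had medians of 332 CPM in basal-like and 18.6 CPM in secretory-like cells (3.43 ± 0.23, edgeR adjusted p = 4.04e-11). The ETS factor Etv5 (2.49 ± 0.23, edgeR adjusted p = 6.51e-09) and the chromatin protein gene Hmga2 (2.59 ± 0.26, edgeR adjusted p = 2.41e-08) were higher in basal-like cells too.

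Ptgs2, the inducible prostaglandin synthase, was lower in ciliated-like than in secretory-like cells (-3.64 ± 0.17, edgeR adjusted p = 2.07e-14), at medians of 10.8 and 73.4 CPM, as was Hmga2 (-2.97 ± 0.54, edgeR adjusted p = 4.93e-05). Etv4 held 0 UMIs in ciliated-like and 16 in secretory-like cells, at least 1.21-fold lower by CPM. Early genes of dissociation were higher than in secretory-like cells for 9 of 14 genes in basal-like and 10 of 14 in ciliated-like cells, each with 3 lower, led in ciliated-like cells by Fos (4.06 ± 0.19, edgeR adjusted p = 2.31e-14), Ier2 (2.56 ± 0.15, edgeR adjusted p = 1.24e-12) and Atf3 (2.40 ± 0.18, edgeR adjusted p = 9.79e-11). In basal-like cells Atf3 (2.69 ± 0.18, edgeR adjusted p = 5.48e-11) and Fos (2.35 ± 0.18, edgeR adjusted p = 3.15e-10) led, and the heat shock gene Hspa1a was lower (-1.93 ± 0.26, edgeR adjusted p = 1.34e-06). Their part in the response and feedback genes was not tested.

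**Figure D5:**
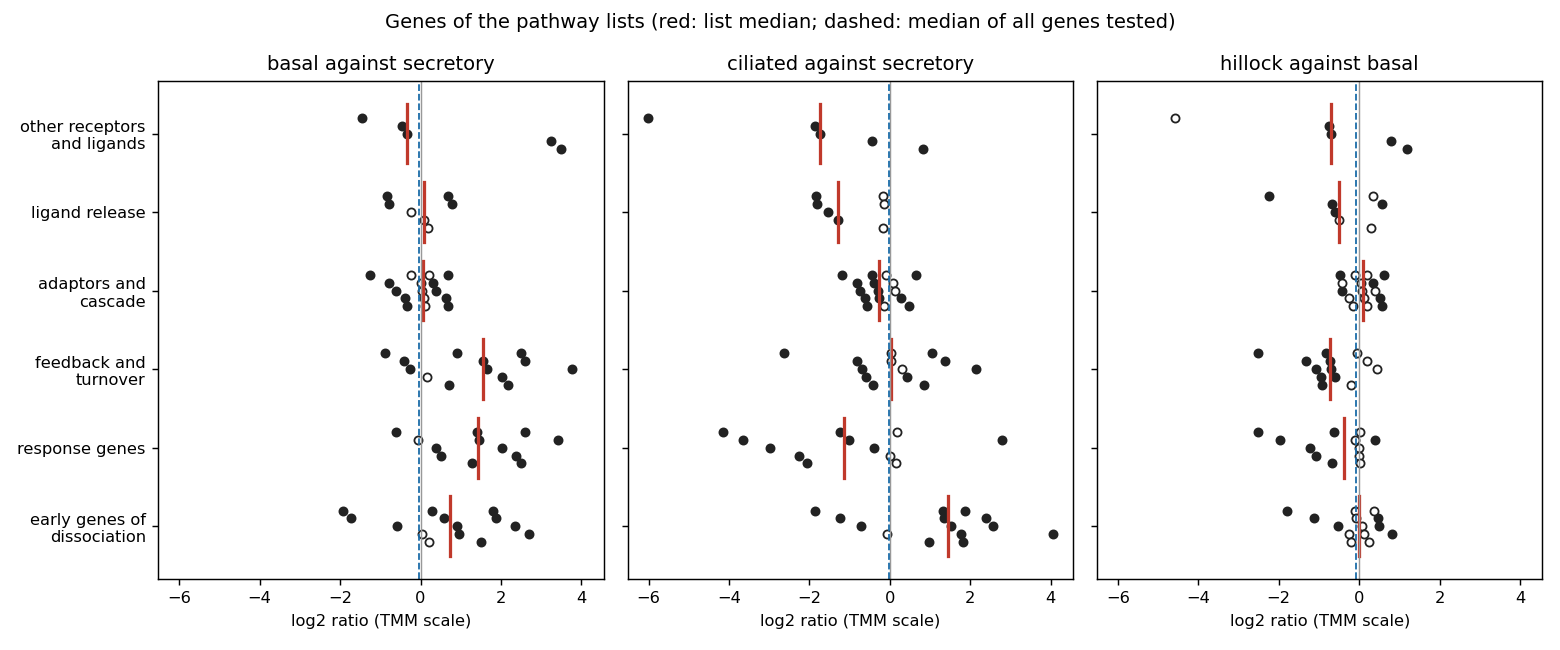
Log2 ratios of the genes in 6 pathway lists (TMM scale, filled where the edgeR adjusted p was under 0.05), with each list's median in red and the median of all genes tested dashed. Feedback and response genes lie to the right in basal-like against secretory-like cells, with medians of 1.56 and 1.42. The far left gene of the first list in the other 2 panels is Erbb4, which had 0 UMIs in ciliated-like and hillock-like cells.

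Markers of other cell types were measured in the same sums. Those of proliferating cells summed to 86.5 to 326 CPM in hillock-like, 11.8 to 63.5 in basal-like, 3.28 to 6.56 in ciliated-like and 2.95 to 19.9 in secretory-like cells. The part of proliferation in the levels of the 7 genes was not tested. Of the 6 fibroblast markers, Dcn was 140 to 219 CPM in basal-like cells and the other 5 summed to 0.176 to 0.666 CPM. Of the 7 macrophage markers, Lyz2 was 2910 to 6060 CPM in secretory-like cells and the other 6 summed to 6.00 to 12.2 CPM. The 4 mitochondrial genes of the RNA quality list that were tested in ciliated-like against secretory-like cells were all lower, by -0.99 ± 0.09 for mt-Nd1 (edgeR adjusted p = 5.02e-09), -0.87 ± 0.09 for mt-Cytb (edgeR adjusted p = 1.67e-08) and -0.65 ± 0.09 for mt-Atp6 (edgeR adjusted p = 2.57e-06), but 2 were higher and 0 lower on library totals. In basal-like cells mt-Co1 was lower (-0.26 ± 0.10, edgeR adjusted p = 0.039) and turned to 0.34 on library totals.

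The genes whose pattern over the 16 sums was most like that of each member were found by Pearson's r of log2(CPM + 1) among 10874 genes with at least 200 UMIs. Egfr was most like Epop (0.97), the chaperonin subunit gene Tcp1 (0.97) and the phosphatase gene Dusp7 (0.966). Ereg was most like Artn, a ligand of the GDNF family (0.962), Tnfrsf21 (0.959) and Extl3 (0.955). Hbegf was most like Gnas, which encodes a stimulatory G protein subunit (0.982), Magi2 (0.971) and the translation factor gene Eif1a (0.96). Areg was most like Tiprl (0.941), the aryl hydrocarbon receptor gene Ahr (0.934) and Ppp1r15a (0.934). Tgfa was most like Malt1 (0.916), Gcfc2 (0.903) and Trim56 (0.891), and Btc was most like Slc27a4 (0.907), Slc45a3 (0.887) and Plekhm2 (0.886). Epgn, with 61 UMIs, was too low for this measure. Among the members, r was 0.80 for Ereg and Btc, 0.73 for Egfr and Ereg, 0.66 for Ereg and Areg and -0.02 for Egfr and Hbegf. The 16 sums share libraries and classes, so these values describe the pattern and carry no p.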

How the data were processed

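The authors deposited raw UMI counts per gene and cell barcode for the 4 libraries in 1 matrix. It was written by Cell Ranger 6.0.1, per the file headers, on GRCm39, per the submitters' processing notes, with the annotation release not given in the sources used here. Earlier results of these data were known when the 7 genes and the gene lists were chosen. The rule named every member, the 3 genes most like each, and, per list, the 3 called genes with the largest absolute log2 ratio and the same direction in 4 of 4 libraries in basal-like or ciliated-like against secretory-like cells. Their values in other comparisons are given too, as are levels of Erbb2, which the rule did not name. One gene that the rule named is not reported here.

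Of 21667 barcodes, 20359 had at least 500 UMIs, at least 300 genes and at most 20% mitochondrial UMIs. The automatic doublet caller of scanpy 1.11.5 marked 0.0442% and was taken to have failed, so the highest-scoring 0.8% per 1000 cells were removed (888 cells). The 52 barcode sequences found in more than 1 library were kept as separate cells. Cells were scaled to 10000 UMIs and clustered on 2000 variable genes, without the members, 30 components and 15 neighbours (leidenalg 0.10.2, resolution 1), and clusters were named from marker lists. Free RNA was not subtracted. Clusters of mixed or unclear markers stayed out of the 4 classes.

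Raw counts were summed per library and class and tested with edgeR 4.0.16 in R 4.3.3 (genes with at least 50 UMIs, TMM, library as block, quasi-likelihood test, Benjamini-Hochberg). The script was tested on simulated data. The block pairs sums of the same library, a pairing that comes from the barcodes. DESeq2 1.42.0, other scalings, filters, class definitions, depths and left-out libraries were alternatives. Promoters came from RefSeq.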

Additional observations from a re-analysis of the deposited data

Results flagged for a closer look

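Epgn in secretory-like cells had 1 library far from the others. Its level was 0.2122 CPM in library 3, from 5 UMIs, and the other 3 libraries held 1 UMI each, so the gap to the nearest library was 0.927 of the whole range. Of the 28 combinations of gene and class, 1 stood out in this way, where chance gives about 1 in 20.

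Hbegf reached 2223 CPM (95% Poisson interval 2036 to 2424) in cluster 11, which belongs to none of the 4 classes and enters no comparison of the report. Its 333 cells had a median of 636 UMIs, and 251 of them came from library 1. The level was 2143, 2339 and 2585 CPM in libraries 1, 2 and 4, and library 3 had 2 cells there. Hbegf was 252 CPM (198 to 315) in leukocyte-like and 74.6 CPM (55.5 to 98.0) in tuft-like cells.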

How the results depend on the processing

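Of 679 alternative values for single genes, 604 kept sign and side of the threshold, 29 lost a call and 23 gained one. The sign changed in 23 others, 17 of them not called in either fit and 6 called in at least 1. The 6 were, on library totals, Tgfa in ciliated-like and in hillock-like against secretory-like cells (0.15 and 0.0033) and Hbegf in hillock-like against secretory-like cells (0.44); over the clusters whose median depth reached 3000 UMIs, an alternative chosen after seeing the data, Tgfa in ciliated-like against basal-like cells (0.11); and Areg in hillock-like against basal-like cells without doublet removal (0.78) and with gated cells (1.04). Against secretory-like cells the median gene lay higher on library totals than on the TMM scale. On library totals the share of higher calls among called genes was 82.4%, 84.8% and 88.6% in basal-like, ciliated-like and hillock-like against secretory-like cells. There TMM gave 48.2%, 50% and 48.2%. Against basal-like cells the share was 61% for ciliated-like and 61.6% for hillock-like cells, where TMM gave 51.5% and 44.8%. In hillock-like against ciliated-like cells it was 43%, where TMM gave 47.4%. The cause of the changes was not tested.

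The number of the 7 genes called was 3 in basal-like against secretory-like cells after thinning, where 47.2% of all genes were called, and ranged from 3 to 5 when a library was left out, where 54% to 55.8% of all genes were. It was 3 in ciliated-like against secretory-like cells on library totals (78.6% of all genes), 4 in hillock-like against basal-like cells without doublet removal (27.1%), and 3 in hillock-like against secretory-like cells after thinning (22.6%). The last comparison ranged from 3 to 6 when a library was left out (33.7% to 37.6%). Fewer genes reach 50 UMIs in such fits. Without the replicate block the 6 comparisons, in the order of the report, gave 4, 5, 5, 2, 4 and 6 calls, where 52.2%, 64.1%, 70.9%, 23.3%, 36.9% and 61% of all genes were called. Combinations of gene and class apart between libraries numbered 6, 12 at a minimum of 1.5-fold and 3 after thinning. The 3 were Areg in hillock-like and Egfr and Areg in secretory-like cells, where Egfr was not among the 6. Fewer of the 7 genes had enough UMIs to be tested after thinning: 3, 2, 2 and 3 in basal-like, hillock-like, ciliated-like and secretory-like cells. Without thinning 5, 4, 4 and 6 had enough. Of all genes, 7.33%, 9.95%, 5.97% and 7.86% were apart after thinning. The counts of 6 and 3 therefore rest on different sets of genes. The Areg and Ereg ratio of 9.9 in secretory-like cells was 15.1 at 500 UMIs and 6.17 at 3000 UMIs. The count ratios with single libraries left out were added after seeing the data. At Leiden resolution 0.5 no hillock class formed, so its comparisons were not run.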

Other observations

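The mixed ciliated and secretory cluster, 1973 cells with a median of 18585 UMIs, carried 29.3 CPM of Egfr, 694 of Hbegf and 44.6 of Areg. Its Hbegf level lay between those of secretory-like and ciliated-like cells. The unnamed cluster 9 of 484 cells, with basal and secretory markers and Krt75, Krt16 and Krt17 among its leading genes, carried 58.8 CPM of Egfr, 698 of Hbegf, 83.4 of Areg and 3.61 of Ereg. Its Egfr and Hbegf levels were near those of basal-like cells, and its Areg level, at 68.7, 42.8, 125 and 65.2 CPM in libraries 1 to 4, was below theirs in each library. Tuft-like cells, chemosensory cells of the airway, numbered 158 and carried 11.7 CPM of Egfr (5.05 to 23.0), 20.5 CPM of Tgfa (11.2 to 34.3) and 5.85 CPM of Areg (1.59 to 15). They held 0 UMIs of Ereg and Epgn, and a floor of 3 UMIs is 4.39 CPM.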
